A study of Rattus norvegicus with 60 samples.

Results

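The serotonin receptors described here are the 10 receptor genes Htr1a, Htr1b, Htr1d, Htr2a, Htr2c, Htr4, Htr5a, Htr5b, Htr6 and Htr7 of the rat. They were found on the array by their symbols: every probe set (the group of probes that together measure 1 transcript) annotated to exactly 1 of these symbols was taken, which gave 17 probe sets of 31042 tested. Htr2a had 4 probe sets, Htr7 had 3, Htr2c and Htr4 had 2 each, and the other 6 genes had 1 each. Where a gene had several, the one with the highest mean over all arrays led and the others are named by their array identifiers. RNA was measured in striatum, hippocampus and cortex of SD rats after 21 days of treatment, with 5 arrays for each of 4 treatments in each region and 60 arrays in all. The treatments were lithium chloride (LiCl) given in the chow at 0.2%, lamotrigine injected under the skin once a day at 30 mg/kg, injections of vehicle, and vehicle chow. The design text gives the daily injections, whereas the time label of every sample speaks of constant delivery, and the tissue label names mouse where strain and organism are of the rat. By the numbers in the labels the arrays came from 24 rats, 7 with LiCl, 5 with lamotrigine, 5 with injection vehicle and 7 with chow vehicle, of which 3, 5, 5 and 3 in the same order gave all 3 regions, so that regions share animals. LiCl was compared with the chow vehicle and lamotrigine with the injection vehicle. The labels name no genetic change and no disease model, and ages were not given in the sources used here.

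Serotonin is released in the forebrain by axons of neurons whose cell bodies lie in the raphe nuclei of the brainstem. Apart from the ion channel Htr3, its receptors act through G proteins. Htr1a, Htr1b, Htr1d and the Htr5 receptors couple to inhibitory G proteins that lower cyclic AMP. Htr2a and Htr2c couple to Gq and phospholipase C, while Htr4, Htr6 and Htr7 couple to Gs and raise cyclic AMP. In bulk tissue, fewer cells of a type and less RNA per cell cannot be told apart.

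The regions carried their own marker genes by the mean of each list, though not by every gene. Summed as a mean log2 intensity over 8 measured genes of medium spiny neurons, the main neurons of the striatum, striatum arrays lay between 11.7 and 12.4, hippocampus arrays between 7.12 and 7.55 and cortex arrays between 7.40 and 7.998. Group means of 8 hippocampal neuron genes were 7.97 to 8.12 in hippocampus and at most 7.05 elsewhere. Those of 7 cortical neuron genes were 8.18 to 8.53 in cortex and at most 7.90 elsewhere. Of the cortical list, Nr4a2 was brighter in hippocampus (mean 9.05) than in cortex (7.41). Fezf2 (8.68 in hippocampus, 8.65 in cortex) and Rasgrf2 (8.32 and 8.26) were no brighter in cortex than in hippocampus. Lamp5 was about as bright in striatum (11.5) as in cortex (11.6). Cux2, Rorb and Tbr1 were brightest in cortex. Tdo2, Dsp and Spink8 of the hippocampal list hardly differed between regions. The 3 measured genes of raphe neurons were low everywhere (group means 5.13 to 5.42), and these regions hold the axons of such neurons, not the cell bodies. Median intensities per array lay between 93.5 and 101. Genes of the choroid plexus, the epithelium that lines parts of the ventricles, set 11 arrays apart (over 1 log2 unit above the median of their region): 5 in striatum, 5 in hippocampus and 1 in cortex, of which 1 was a chow vehicle array.

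Levels are log2 of the deposited intensities, so a difference of 1 is a doubling, and levels of different probe sets cannot be ranked by abundance. As a rough guide to background, the 90th percentile of 51 probe sets of 40 genes foreign to brain was 7.40, and 5 receptor probe sets had a group mean above it: Htr1a, Htr2a 1369125_at, both probe sets of Htr2c, and Htr5b. That level was raised by 5 probe sets of the muscle myosin Myh1, which were bright in these arrays (9.10 to 12.5). Without Myh1, a choice made after seeing the data, it was 6.07 and 10 of 17 receptor probe sets passed, among them also Htr1d, Htr2a 1369124_at, Htr4 1391263_at, Htr5a and Htr7 1369119_a_at. Htr1b (highest group mean 5.89) and Htr6 (5.55) stayed below both levels, as did 5 further probe sets: Htr2a 1387752_s_at and 1369894_at, Htr4 1369533_a_at, and Htr7 1387466_a_at and 1371290_a_at. Differences of such probe sets can be compressed.

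The levels of most receptors differed between regions. Each region was compared over its 10 vehicle arrays (5 with injection vehicle and 5 with chow vehicle) in a limma fit of all 60 arrays with the animal as a random block, so that fitted differences can depart slightly from differences of plain means. At an adjusted p of 0.05 after Benjamini-Hochberg correction over all probe sets, 12 of 17 receptor probe sets differed between hippocampus and cortex, against 42.4% of all probe sets. The count was also 12 for striatum against cortex (55.9% of all) and 12 for striatum against hippocampus (50.9% of all).

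Among the receptors coupled to inhibitory G proteins, Htr1a, which acts on hippocampal pyramidal neurons and as the autoreceptor of raphe neurons, was highest in hippocampus. Over the 10 vehicle arrays its log2 level ran from 4.58 to 5.20 in striatum (median 4.82), from 6.96 to 7.63 in hippocampus (median 7.30) and from 5.37 to 5.99 in cortex (median 5.82). The 3 regions did not overlap. Hippocampus exceeded cortex by 1.51 ± 0.09 (SE; 2.84-fold, limma adjusted p = 1.68e-21), and striatum lay below hippocampus by 5.51-fold (log2 difference -2.46 ± 0.09, limma adjusted p = 8.75e-32). Htr1a was also 1.94-fold lower in striatum than in cortex (limma adjusted p = 1.79e-14).

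Htr5b showed the widest regional difference among the receptor probe sets. This gene codes for a receptor in rodents, while in humans its reading frame is interrupted. Its log2 level ran from 3.66 to 4.09 in striatum (median 3.88), from 6.83 to 7.67 in hippocampus (median 7.27) and from 3.43 to 3.79 in cortex (median 3.60). Hippocampus stood above both other regions in every array, by 3.68 ± 0.06 (12.8-fold) over cortex, with a limma adjusted p of 2.95e-45. Striatum was 10.4-fold below hippocampus (limma adjusted p = 2.15e-44) and 1.23-fold above cortex (limma adjusted p = 6.46e-05), both of these regions being near the bottom of the scale of the array. Its closest relative Htr5a did not follow it. Mean vehicle levels of Htr5a were 5.80 ± 0.26 in striatum, 5.77 ± 0.10 in hippocampus and 5.91 ± 0.24 in cortex (SD, n = 10 each), and none of the 3 regional differences passed the test (limma adjusted p from 0.203 to 0.787).

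Htr1d, an inhibitory receptor known from axon terminals, had the largest striatal excess of the group. Its log2 level ran from 6.92 to 7.43 in striatum (median 7.26), from 4.56 to 5.13 in hippocampus (median 4.91) and from 4.95 to 5.34 in cortex (median 5.11). Every striatal vehicle array was above every array of the other regions, and the difference was 2.10 ± 0.09 over cortex (4.29-fold, limma adjusted p = 5.76e-28) and 2.36 ± 0.09 over hippocampus (5.13-fold, limma adjusted p = 4.93e-30). Hippocampus lay a little below cortex (log2 difference -0.26 ± 0.09, limma adjusted p = 0.0187), a call that was lost without the arrays numbered replicate 5 (-0.13, adjusted p = 0.321) and when the injection arm was tested alone with the animal as a fixed block (adjusted p = 0.102). Htr1b, a terminal autoreceptor, ran in the same order of striatum over the others but with small steps: vehicle means were 5.73 ± 0.26 in striatum, 5.38 ± 0.17 in hippocampus and 5.08 ± 0.16 in cortex (SD, n = 10 each), all below both background levels. Striatum exceeded cortex by 1.56-fold (limma adjusted p = 9.76e-10) and hippocampus by 1.27-fold (limma adjusted p = 0.000398), which no longer passed without the arrays numbered replicate 5 (adjusted p = 0.0573). The 1.23-fold excess of hippocampus over cortex (limma adjusted p = 0.00228) was lost in the injection arm alone (adjusted p = 0.473) and with the difference between 3′ and 5′ control probe sets as a covariate (adjusted p = 0.0790).

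The 250 bases before the RefSeq start of transcription are shown for Htr5b, which stood out in hippocampus, for Htr1d, which stood out in striatum, and for Htr5a, the near relative of Htr5b that did not differ between regions. They are credited to RefSeq (build GRCr8), where 7 of the 10 genes had an entry, and run 5′ to 3′ on the strand of the gene. Capitals mark 3 short motifs that were searched on both strands: the GC box (GGGCGG), the CCAAT box (CCAAT) and the E-box (CANNTG). The Htr5b stretch lies at chr13:35252587-35252836 on the minus strand, that of Htr5a at chr4:8188486-8188735 on the minus strand, and that of Htr1d at chr5:153939485-153939734 on the plus strand.
Htr5b: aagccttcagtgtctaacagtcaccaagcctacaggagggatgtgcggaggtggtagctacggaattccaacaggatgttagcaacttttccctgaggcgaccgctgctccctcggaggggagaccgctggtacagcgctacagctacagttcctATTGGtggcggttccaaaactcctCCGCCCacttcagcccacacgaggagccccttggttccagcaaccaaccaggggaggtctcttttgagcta
Htr5a: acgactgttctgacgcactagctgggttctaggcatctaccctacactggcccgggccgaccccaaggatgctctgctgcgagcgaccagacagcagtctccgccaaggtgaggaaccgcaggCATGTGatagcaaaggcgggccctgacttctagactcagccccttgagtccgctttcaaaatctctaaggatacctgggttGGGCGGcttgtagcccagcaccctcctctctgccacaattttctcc
Htr1d: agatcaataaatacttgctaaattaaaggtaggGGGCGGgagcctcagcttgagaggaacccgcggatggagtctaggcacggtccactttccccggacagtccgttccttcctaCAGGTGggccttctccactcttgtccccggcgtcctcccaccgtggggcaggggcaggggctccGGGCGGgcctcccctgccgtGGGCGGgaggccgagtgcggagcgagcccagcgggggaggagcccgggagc

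The Htr5b stretch held 1 GC box and 1 CCAAT box, both on the opposite strand, and no E-box. That of Htr5a held 1 GC box and 1 E-box. That of Htr1d held 3 GC boxes and 1 E-box. Of all 33469 rat stretches of this length, 10197 held a GC box (30.5%), 11385 a CCAAT box and 21936 an E-box (65.5%). A match describes letters only.

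Of the receptors coupled to Gq, Htr2a was the cortical one. Over vehicle arrays the leading probe set 1369125_at ran from 5.69 to 6.73 in striatum (median 6.23), from 4.62 to 6.24 in hippocampus (median 5.33) and from 6.96 to 8.36 in cortex (median 8.15). Cortex was above both other regions in every vehicle array. Hippocampus lay below it by 5.43-fold (log2 difference -2.44 ± 0.13, limma adjusted p = 1.60e-23) and striatum by 3.35-fold (log2 difference -1.75 ± 0.12, limma adjusted p = 2.68e-18). The second probe set 1369124_at was also lower in hippocampus (1.99-fold) and in striatum (1.67-fold) than in cortex, with overlapping arrays. Over the 60 arrays both probe sets correlated at r = 0.893, and their deviations from the group means at r = 0.532. The probe sets 1387752_s_at and 1369894_at stayed near the bottom of the scale in every region (vehicle means 4.70 to 4.92 and 3.33 to 3.34).

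Htr2c, which is abundant both in neurons and in choroid plexus epithelium, was highest in striatum. Its leading probe set 1376980_at ran from 10.8 to 12.2 in striatum (median 11.5), from 10.003 to 11.2 in hippocampus (median 10.4) and from 8.65 to 9.95 in cortex (median 9.35). Striatum exceeded cortex by 2.13 ± 0.16 (4.37-fold, limma adjusted p = 2.42e-17) and, with overlapping arrays, hippocampus by 0.94 ± 0.16 (1.92-fold, limma adjusted p = 1.80e-06). Hippocampus exceeded cortex by 1.18 ± 0.16 (2.27-fold, limma adjusted p = 1.96e-08). The second probe set 1369860_a_at gave the same order, at 3.17-fold, 1.85-fold and 1.71-fold.

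In striatum the level of Htr2c at 1376980_at was higher in the arrays high in choroid plexus genes. These 5 arrays (mean log2 level of 12 measured genes from 8.66 to 9.20, against 5.69 to 6.64 in the other 15) had Htr2c 1376980_at levels of 11.9 to 12.3, and the other 15 had 10.6 to 11.7. These ranges did not overlap. In hippocampus the 5 high arrays had 10.4 to 11.2 and the other 15 had 9.91 to 10.7, with overlap, and in cortex the 1 high array (9.40) lay within the other 19 (8.65 to 10.2). For 1369860_a_at the ranges overlapped in striatum (7.87 to 8.999 in the high arrays, 6.02 to 8.95 in the rest). In hippocampus the high arrays had the lower median (6.73, against 7.17 in the rest). These medians pool treatments, and injected arrays there (7.17 to 8.27) did not overlap chow-fed ones (6.18 to 6.89). Within treatments the high arrays were the brightest with LiCl (replicates 2 and 4, 6.73 and 6.67, others 6.18 to 6.44). They were also the brightest with injection vehicle (replicates 1 and 3, 8.27 and 8.01, others 7.36 to 7.90). With chow vehicle the high array, replicate 5, was the lowest (6.32, others 6.49 to 6.89). Without the 11 high arrays, striatum still exceeded cortex by 2.01 (limma adjusted p = 1.21e-17) and hippocampus by 1.04 (limma adjusted p = 3.95e-08) at 1376980_at.

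**Figure D1:**
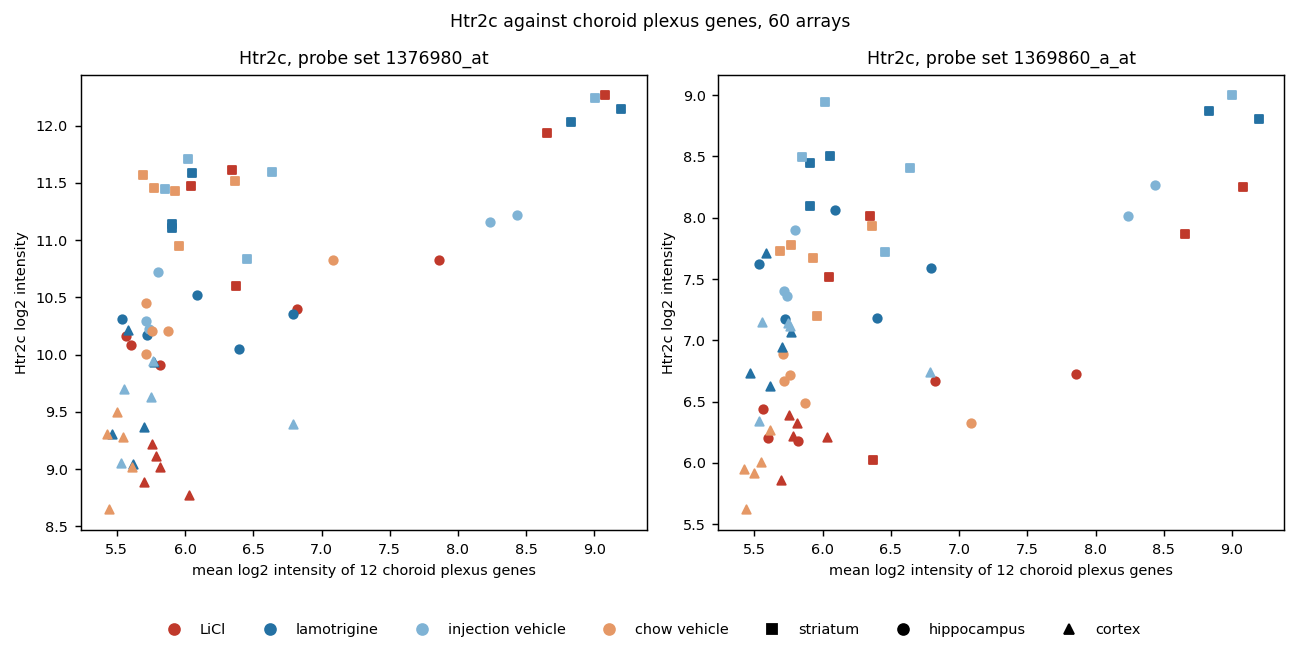
Log2 intensity of each Htr2c probe set (vertical axis) against the mean log2 intensity of 12 choroid plexus genes (horizontal axis) in each of 60 arrays, with colours for treatments and symbols for regions. The 5 striatum arrays at 8.66 to 9.20 on the horizontal axis hold the 5 highest 1376980_at levels, 11.9 to 12.3.

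Of the receptors coupled to Gs, Htr4 was high in striatum and hippocampus and low in cortex. Its leading probe set 1391263_at ran from 6.51 to 7.51 in striatum (median 7.29), from 6.12 to 7.23 in hippocampus (median 6.50) and from 3.93 to 4.72 in cortex (median 4.41), and cortex did not overlap with the others. Striatum exceeded cortex by 2.82 ± 0.13 (7.05-fold, limma adjusted p = 3.33e-26) and hippocampus exceeded it by 2.20 ± 0.13 (4.60-fold, limma adjusted p = 1.29e-20). Between striatum and hippocampus the difference was 0.62 ± 0.13 (1.53-fold, limma adjusted p = 9.73e-05), with overlapping arrays. The dimmer probe set 1369533_a_at kept this order with smaller steps (1.74-fold for striatum over cortex, 1.46-fold for hippocampus over cortex).

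Htr7 was lowest in striatum, where Htr4 was highest, and was higher in hippocampus than in cortex, as Htr4 was. Vehicle means of 1369119_a_at were 5.87 ± 0.14 in striatum, 6.97 ± 0.26 in hippocampus and 6.52 ± 0.26 in cortex (SD, n = 10 each). Striatum lay below hippocampus by 2.14-fold (limma adjusted p = 1.80e-20) and below cortex by 1.56-fold (limma adjusted p = 4.72e-12), without overlap. Hippocampus exceeded cortex by 1.37-fold (limma adjusted p = 2.45e-07), with overlap. Its other probe sets, 1387466_a_at and 1371290_a_at, passed the test in none of the 3 region comparisons (limma adjusted p from 0.0999 to 0.806). Htr6, below both background levels, had vehicle means of 5.51 ± 0.11 in striatum, 4.95 ± 0.20 in hippocampus and 5.01 ± 0.18 in cortex (SD, n = 10 each). Striatum exceeded hippocampus by 1.47-fold (limma adjusted p = 3.96e-10) and cortex by 1.42-fold (limma adjusted p = 4.30e-09), and hippocampus and cortex did not differ beyond their spread (limma adjusted p = 0.551).

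**Figure D2:**
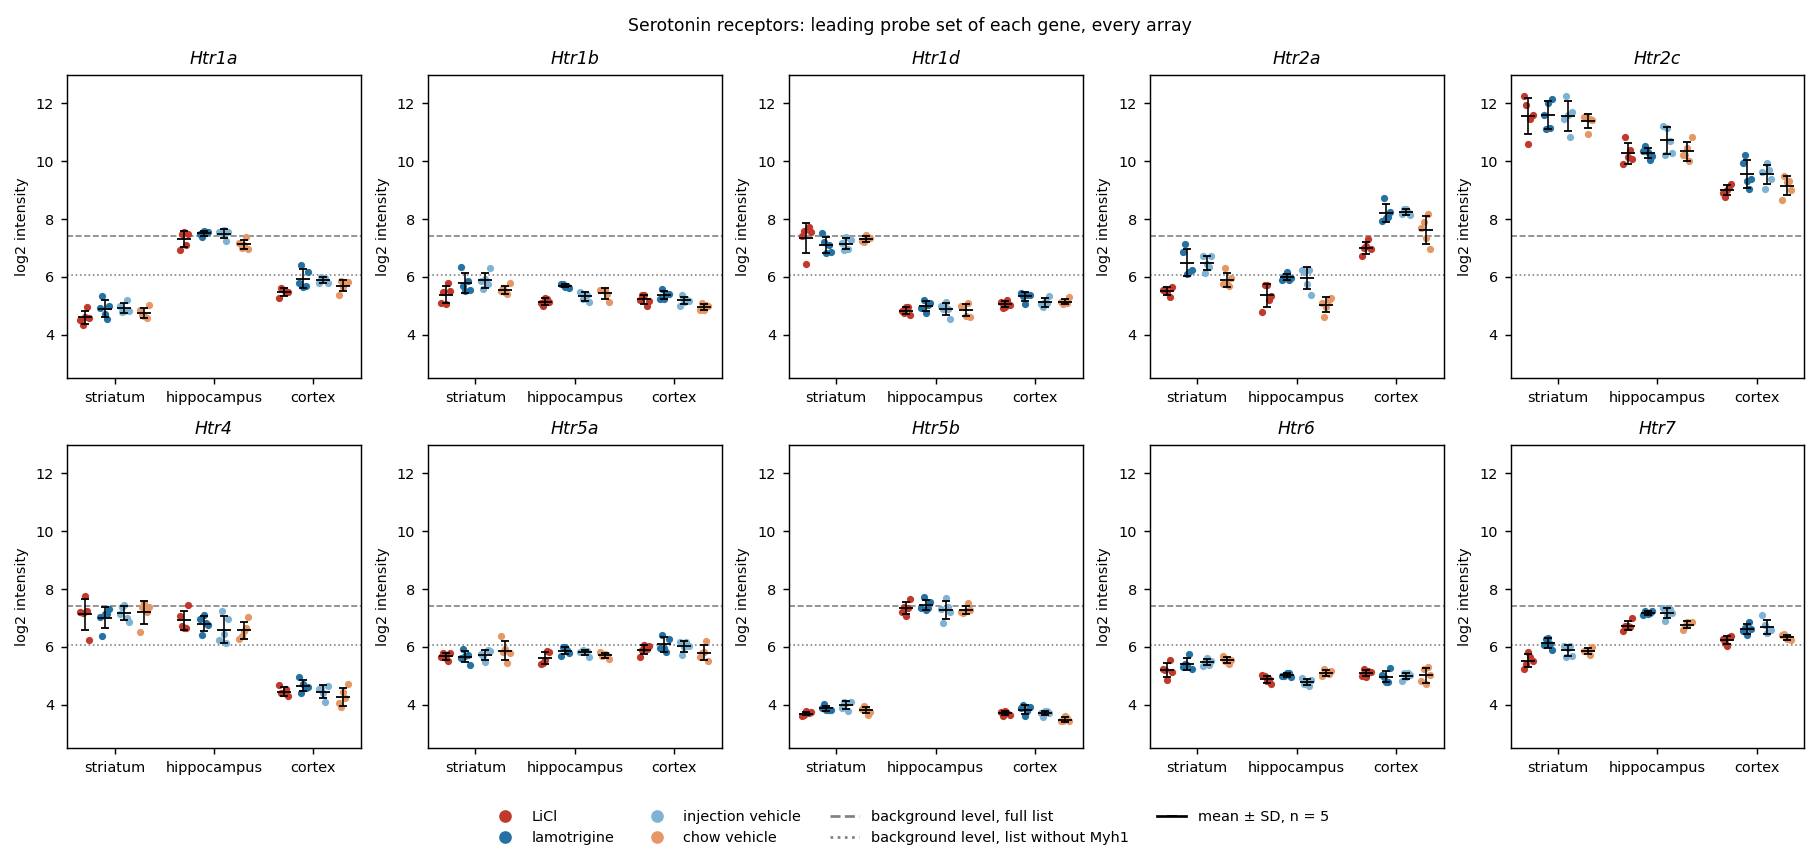
Log2 intensity of the leading probe set of each of the 10 receptor genes in every array, by region and treatment, with mean and SD of each group of 5. Htr5b stands at or above 6.83 in all 20 hippocampus arrays and at or below 4.09 in the other 40, Htr4 is lowest in cortex, Htr1d highest in striatum and Htr2a highest in cortex.

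The genes whose pattern over the 60 arrays came nearest to each receptor (Pearson's r, a description that mostly follows region, since the arrays share their regions) are given here. For Htr1d they were the acid-sensing channel gene Asic4 (r = 0.981), the dopamine receptor gene Drd1 (r = 0.981) and Tac1 (r = 0.980), the gene of substance P. For Htr5b they were the protease gene Klk8 (r = 0.980), Lhx9 (r = 0.978) and the mineralocorticoid receptor gene Nr3c2 (r = 0.978), and for Htr1a they were Trpc4 (r = 0.980), Kctd4 (r = 0.971) and Mas1 (r = 0.969). The closest genes reached r = 0.934 for Htr2a (Sgtb), 0.937 for Htr2c (the potassium channel gene Kcna4), 0.951 for Htr4 (Rerg), 0.928 for Htr7 (Clstn2), 0.804 for Htr1b (Hnrnpa0), 0.799 for Htr6 (Agmat) and 0.637 for Htr5a (Atp2b4). Over deviations from the 12 group means, which leave region out, the closest genes reached r = 0.723 for Htr2c (Cpne2), 0.707 for Htr1d (Atl1), 0.699 for Htr1a (Bag4), 0.668 for Htr4 (Ago1), 0.649 for Htr2a (Clint1), 0.612 for Htr5a (Vdac2), 0.583 for Htr5b (Tpgs2) and 0.573 for Htr7 (Tipin).

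For LiCl against vehicle chow, 2 receptor probe sets were called, both in cortex. These were 2 of 17, a share no higher than the 13.4% of all probe sets called in that comparison. Htr2a 1369125_at, the excitatory receptor of cortical pyramidal neurons, was lower, with levels of 6.73, 6.99, 7.07, 7.29 and 6.98 in LiCl cortex, against 7.69, 7.92, 7.33, 8.19 and 6.96 in chow vehicle cortex. All 5 LiCl arrays were below the chow vehicle mean, but the lowest chow vehicle array lay among them. The difference was -0.60 ± 0.17 (1.52-fold, 95% interval -0.96 to -0.25, limma adjusted p = 0.0242). The call was lost without chow vehicle replicate 2 (-0.53, adjusted p = 0.0654), chow vehicle replicate 4 (-0.46, adjusted p = 0.0741), LiCl replicate 1 (-0.53, adjusted p = 0.0663) or LiCl replicate 5 (-0.60, adjusted p = 0.0525). Genes of cortical neurons were also lower: their mean level over 7 measured genes was 8.15 to 8.27 in LiCl cortex and 8.48 to 8.54 in chow vehicle cortex, without overlap, 3 of the 7 were called lower and none higher, and the least bright of them averaged 6.75. Their part in the Htr2a value was not tested. The second Htr2a probe set did not follow, at 5.56 ± 0.20 in LiCl cortex and 5.44 ± 0.29 in chow vehicle cortex (SD, n = 5 each; limma adjusted p = 0.602).

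Htr5b in cortex was higher with LiCl at the bottom of the scale, with 3.76, 3.61, 3.77, 3.71 and 3.66 in LiCl cortex, against 3.43, 3.43, 3.60, 3.53 and 3.44 in chow vehicle cortex. The groups did not overlap, which was so for 1 of 17 receptor probe sets and 11.8% of all, and the difference was 0.21 ± 0.07 (1.16-fold, limma adjusted p = 0.0386). With 1 array left out at a time this call held only without chow vehicle replicate 3 or LiCl replicate 2, and the highest adjusted p was 0.0877, without LiCl replicate 3. Htr1a, named next by its p, had 5.26, 5.61, 5.54, 5.47 and 5.48 in LiCl cortex, against 5.37, 5.84, 5.64, 5.83 and 5.81 in chow vehicle cortex, a difference of -0.23 ± 0.13 that did not pass (limma adjusted p = 0.235). All of these Htr1a levels lay below both background levels.

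The calls in LiCl cortex were lost with the spread of the arrays as a covariate. The distance between the 25th and 75th percentiles of log2 intensity was 3.29 to 3.44 in LiCl cortex and 3.56 to 3.61 in chow vehicle cortex, without overlap. With this spread as a covariate the Htr2a difference was -0.39 (adjusted p = 0.689) and that of Htr5b 0.09 (adjusted p = 0.819). No probe set of the array was then called, against 4164 without it. Because the spread did not overlap between the compared groups, this fit could hardly tell spread and treatment apart. The part of the spread in these results was not tested further.

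In hippocampus and striatum no receptor probe set passed the test for LiCl (0 of 17 each, limma), against 0.235% of all probe sets in hippocampus and none in striatum, where 4 receptor probe sets and 12.3% of all had an unadjusted p under 0.05. In hippocampus 73 probe sets of all passed and 3 receptor probe sets had an unadjusted p under 0.05, against 15.5% of all. The naming rule gave Htr2a, Htr1a and Htr2c in hippocampus. Htr2a 1369125_at had 4.80, 5.73, 5.73, 5.22 and 5.34 in LiCl hippocampus, against 5.09, 4.62, 4.97, 5.20 and 5.29 in chow vehicle hippocampus (difference 0.33 ± 0.18, limma adjusted p = 0.373). The groups overlapped, and all of these Htr2a levels lay below both background levels. Htr1a had 6.94, 7.48, 7.56, 7.12 and 7.50 in LiCl hippocampus, against 7.16, 7.002, 7.11, 7.38 and 6.96 in chow vehicle hippocampus (difference 0.20 ± 0.11, limma adjusted p = 0.387). Htr2c 1369860_a_at had 6.18, 6.73, 6.44, 6.67 and 6.21 in LiCl hippocampus, against 6.49, 6.72, 6.67, 6.89 and 6.32 in chow vehicle hippocampus (difference -0.17 ± 0.18, limma adjusted p = 0.681). Both of these overlapped as well, and no receptor probe set of 17 had groups apart in this comparison, against 3.87% of all.

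In striatum Htr2a 1369125_at had 5.55, 5.59, 5.47, 5.32 and 5.66 with LiCl, against 5.76, 6.31, 5.77, 5.69 and 5.97 with chow vehicle. Every LiCl array lay below every chow vehicle array, the only receptor probe set of 17 of which that was true there (2.96% of all), and the difference of -0.38 ± 0.18 did not pass the test (95% interval -0.75 to -0.01, limma adjusted p = 0.391). Htr5b had 3.61, 3.65, 3.77, 3.71 and 3.75 in LiCl striatum, against 3.86, 3.96, 3.85, 3.66 and 3.75 in chow vehicle striatum (difference -0.12 ± 0.07, limma adjusted p = 0.482), with overlap. Htr1a had 4.50, 4.34, 4.60, 4.95 and 4.59 in LiCl striatum, against 4.84, 4.67, 4.65, 4.58 and 5.04 in chow vehicle striatum (difference -0.16 ± 0.13, limma adjusted p = 0.640), also with overlap. Htr2a 1369125_at, Htr5b and Htr1a were named because they exceeded the background level of 7.40 in another region. In striatum all of them lay below it. The receptors with the smallest p in striatum exceeded this level in no group, so the rule left them out. They were not dimmer in striatum than Htr5b and Htr1a, and are named after their values were seen. Htr6 had 5.22, 5.20, 4.87, 5.53 and 5.14 in LiCl striatum, against 5.70, 5.51, 5.58, 5.40 and 5.56 in chow vehicle striatum (difference -0.36 ± 0.11, limma adjusted p = 0.242). Htr7 1369119_a_at had 5.25, 5.40, 5.83, 5.65 and 5.50 in LiCl striatum, against 5.86, 5.89, 5.88, 5.72 and 5.99 in chow vehicle striatum (difference -0.34 ± 0.11, limma adjusted p = 0.262). In both, all 5 LiCl arrays lay below the chow vehicle mean and the groups overlapped. Of the 17 differences 15 were negative in striatum, 11 in hippocampus and 7 in cortex, with medians of -0.17, -0.03 and 0.08, while the median over all probe sets was -0.02, 0.00 and 0.00.

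A test of whether the LiCl effect differed between the 3 regions, over all 60 arrays, called 3 of 17 receptor probe sets, against 17.2% of all. They were Htr2a 1369125_at (limma adjusted p = 0.0178), Htr1b (limma adjusted p = 0.0313) and Htr6 (limma adjusted p = 0.0412). Without the arrays numbered replicate 2, or those numbered 3, none of the 3 passed (adjusted p without number 3 of 0.0837, 0.195 and 0.271). For Htr2a the LiCl differences were -0.38 in striatum, 0.33 in hippocampus and -0.60 in cortex. For Htr1b they were -0.17 in striatum, -0.28 in hippocampus and 0.25 in cortex. For Htr6 they were -0.36 in striatum, -0.23 in hippocampus and 0.08 in cortex. With the spread of the arrays as a covariate none of the 3 passed (adjusted p of 0.572, 0.839 and 0.833) and 8 probe sets were called in all, against 5348. Averaged over the regions, no receptor probe set passed for LiCl (0 of 17, against 0.786% of all; 3 had an unadjusted p under 0.05, against 13.9% of all), the lowest limma adjusted p being 0.192, for Htr6 at -0.17 ± 0.06.

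No receptor probe set passed the test for lamotrigine in any region when set against injections of vehicle (0 of 17 each, limma). Of all probe sets, none passed in striatum or cortex and 1 passed in hippocampus (0.00322%). At an unadjusted p under 0.05 there were 1 receptor probe set in striatum (3.84% of all), 5 in hippocampus (9.87% of all) and 1 in cortex (5.80% of all). The 95% intervals of the 17 differences reached 0.116 to 0.648 log2 units to either side in striatum, 0.124 to 0.414 in hippocampus and 0.134 to 0.390 in cortex. Positive differences numbered 7 of 17 in striatum, 15 in hippocampus, 11 in cortex and 15 averaged over the regions. Their medians in the regions were -0.02, 0.10 and 0.07, while the median over all probe sets was 0.00, 0.01 and 0.01.

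In hippocampus Htr2c 1376980_at had 10.36, 10.52, 10.32, 10.05 and 10.17 with lamotrigine, against 11.22, 10.22, 11.16, 10.72 and 10.30 with injection vehicle. The difference was -0.44 ± 0.19 (limma adjusted p = 0.451), and the 2 highest vehicle arrays were also the 2 high in choroid plexus genes (8.44 and 8.24). Without the arrays high in these genes the difference was -0.13 (adjusted p = 0.842). Htr2c 1369860_a_at had 7.59, 8.07, 7.62, 7.18 and 7.17 in lamotrigine hippocampus, against 8.27, 7.36, 8.01, 7.90 and 7.40 in injection vehicle hippocampus (difference -0.26 ± 0.18, limma adjusted p = 0.677). Htr5b had 7.36, 7.72, 7.28, 7.34 and 7.54 in lamotrigine hippocampus, against 7.32, 6.83, 7.67, 7.39 and 7.21 in injection vehicle hippocampus (difference 0.16 ± 0.13, limma adjusted p = 0.728). All 3 overlapped.

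The 3 of 17 receptor probe sets whose groups did not overlap in this comparison, against 2.14% of all, were dim, and are named after their values were seen. Htr1b had 5.74, 5.77, 5.65, 5.70 and 5.63 in lamotrigine hippocampus, against 5.47, 5.22, 5.42, 5.37 and 5.13 in injection vehicle hippocampus. The difference of 0.37 ± 0.09 (1.29-fold, 95% interval 0.19 to 0.56) did not pass after correction over all probe sets (unadjusted p = 0.000447, limma adjusted p = 0.201). The others were Htr6 (0.24 ± 0.08, limma adjusted p = 0.296) and Htr7 1371290_a_at (0.30 ± 0.06, limma adjusted p = 0.148), the last at the bottom of the scale with means of 3.50 with lamotrigine and 3.20 with injection vehicle.

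In striatum the rule named Htr5b, Htr1a and Htr2c. Htr5b had 3.89, 4.02, 3.83, 3.83 and 3.82 with lamotrigine, against 3.90, 4.08, 4.07, 3.77 and 4.09 with injection vehicle (difference -0.11 ± 0.07, limma adjusted p = 0.997). Htr1a had 4.91, 5.35, 4.73, 4.54 and 4.99 with lamotrigine, against 5.01, 4.80, 4.84, 5.20 and 4.81 with injection vehicle (difference -0.03 ± 0.13, limma adjusted p = 0.997). Htr2c 1376980_at had 11.59, 11.105, 12.03, 11.14 and 12.15 with lamotrigine, against 11.45, 12.24, 11.60, 10.84 and 11.71 with injection vehicle (difference 0.04 ± 0.27, limma adjusted p = 0.997). All of these Htr5b and Htr1a levels lay below both background levels. The groups overlapped at all 17 receptor probe sets, and 0.557% of all probe sets had groups apart.

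In cortex it named Htr5b, Htr2c and Htr1a. Htr5b had 3.88, 4.00, 3.60, 3.77 and 3.90 with lamotrigine, against 3.73, 3.59, 3.79, 3.77 and 3.70 with injection vehicle (difference 0.12 ± 0.07, limma adjusted p = 0.870). Htr2c 1369860_a_at had 7.07, 7.71, 6.74, 6.63 and 6.94 with lamotrigine, against 7.14, 6.34, 7.12, 7.15 and 6.74 with injection vehicle (difference 0.12 ± 0.18, limma adjusted p = 0.959). Htr1a had 5.78, 6.41, 5.65, 5.67 and 6.17 with lamotrigine, against 5.78, 5.99, 5.96, 5.97 and 5.79 with injection vehicle (difference 0.04 ± 0.13, limma adjusted p = 0.986). All of these Htr5b and Htr1a levels lay below the background level of 7.40. Again the groups overlapped at all 17 receptor probe sets, and 0.763% of all had groups apart. Averaged over the regions, no receptor probe set passed for lamotrigine (0 of 17, against 0.119% of all, limma; 1 at an unadjusted p under 0.05, against 7.70% of all), and none passed the test of a lamotrigine effect that differed between regions (0 of 17, no probe set of all; 2 at an unadjusted p under 0.05, against 5.52% of all).

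**Figure D3:**
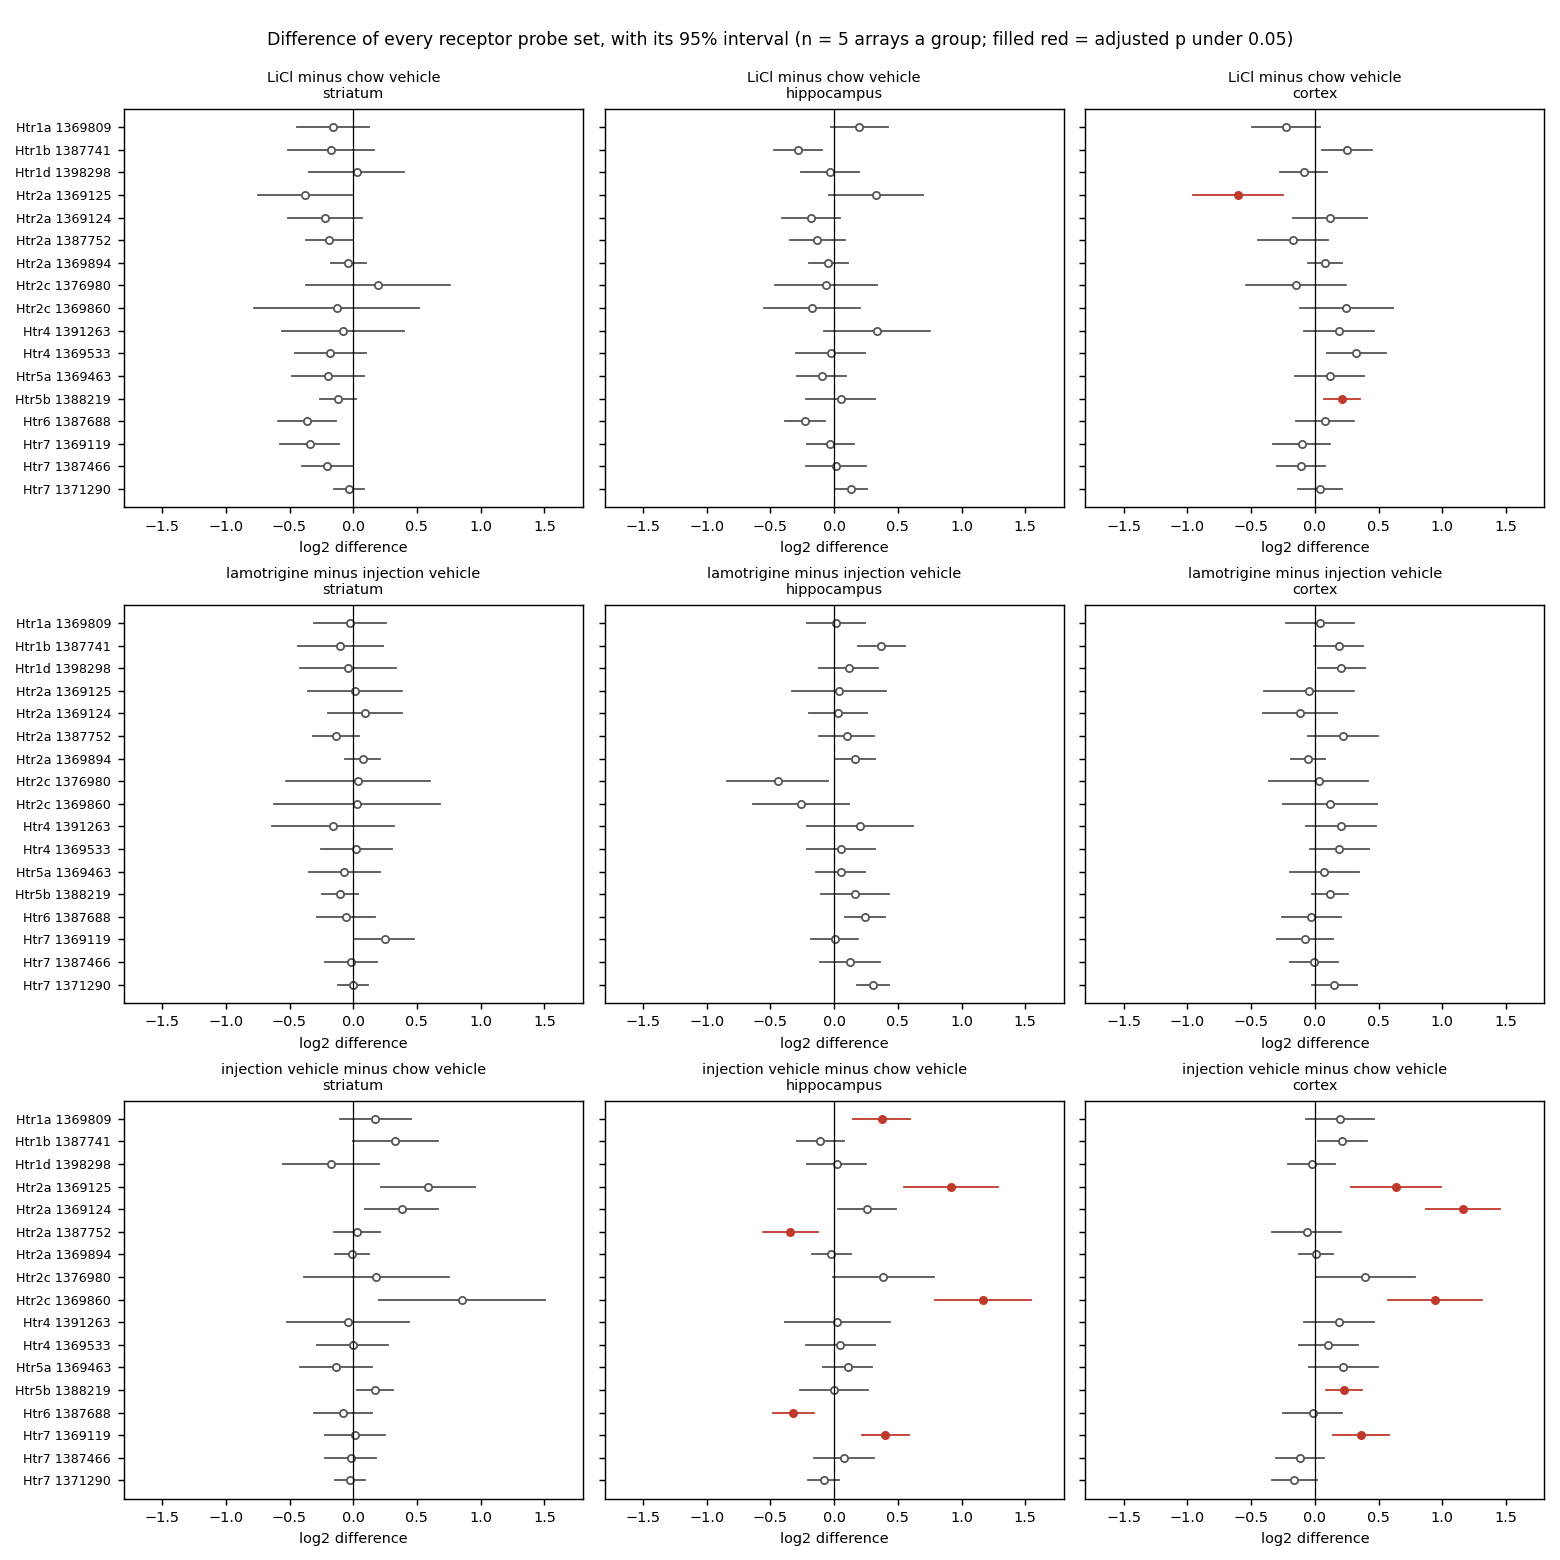
Log2 difference of each of the 17 receptor probe sets with its 95% interval, for LiCl minus chow vehicle (top row), lamotrigine minus injection vehicle (middle row) and injection vehicle minus chow vehicle (bottom row) in striatum, hippocampus and cortex, with 5 arrays in each group. Filled red points passed an adjusted p of 0.05: 2 in the top row, none in the middle row, and 6 in hippocampus and 5 in cortex in the bottom row.

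The 2 vehicles themselves differed more than either drug did from its own vehicle, by count of calls. Injection vehicle was compared with chow vehicle to measure what the route, or anything else that separates the arms of the study, adds to the levels. These comparisons use the same vehicle arrays as the drug comparisons, so they are not independent of them. In hippocampus 6 of 17 receptor probe sets passed, against 18.5% of all, 4 higher and 2 lower with injection. In cortex 5 of 17 passed, against 18.9% of all, and all 5 were higher. In striatum none of 17 passed, against 6.83% of all (limma; 4 receptor probe sets had an unadjusted p under 0.05, against 20.3% of all). The vehicle groups did not overlap at 4 receptor probe sets in hippocampus (12.6% of all), 3 in cortex (13.4% of all) and none in striatum (9.51% of all). Route, animals and any batch of the arms cannot be told apart here.

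Htr2a was called higher after injections of vehicle at 1369125_at in hippocampus and cortex and at 1369124_at in cortex. In hippocampus 1369125_at had 6.24, 6.16, 5.75, 6.24 and 5.37 with injection vehicle, against 5.09, 4.62, 4.97, 5.20 and 5.29 with chow vehicle. The groups did not overlap, and the difference was 0.92 ± 0.18 (1.89-fold, limma adjusted p = 0.000897). All of these hippocampus levels lay below the background level of 7.40, and those with chow vehicle also below 6.07. In cortex 1369125_at had 8.16, 8.35, 8.36, 8.26 and 8.14 with injection vehicle, against 7.69, 7.92, 7.33, 8.19 and 6.96 with chow vehicle (difference 0.64 ± 0.17, 1.56-fold, limma adjusted p = 0.0104), where 1 chow vehicle array reached into the injection range. The second probe set 1369124_at in cortex had 6.44, 6.45, 6.65, 6.93 and 6.54 with injection vehicle, against 5.17, 5.72, 5.40, 5.75 and 5.15 with chow vehicle. The groups were apart, and the difference of 1.16 ± 0.14 (2.24-fold) had the smallest adjusted p of the receptors in this comparison (limma adjusted p = 4.25e-06). These 1369124_at levels likewise lay below 7.40, and those with chow vehicle below 6.07. In hippocampus 1369124_at was not called, and its groups overlapped. Its means there were 5.16 with injection vehicle and 4.90 with chow vehicle. The dim Htr2a probe set 1369894_at was called in none of the regions.

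In striatum the difference at 1369125_at was 0.58 ± 0.18 and just missed the threshold (limma adjusted p = 0.0505). Genes of cortical neurons had mean levels of 6.54 to 7.35 in these injection vehicle arrays and 6.42 to 6.88 in the chow vehicle arrays, over 7 measured genes, and their part in this value was not tested. The dim probe set 1387752_s_at went the other way in hippocampus, with 4.60, 4.62, 4.19, 4.66 and 4.55 with injection vehicle, against 4.98, 5.22, 4.73, 4.55 and 4.86 with chow vehicle (difference -0.35 ± 0.10, limma adjusted p = 0.0246, with overlap). That call was lost without injection vehicle replicate 3 (adjusted p = 0.0815), chow vehicle replicate 1 (adjusted p = 0.0611) or chow vehicle replicate 2 (adjusted p = 0.0791).

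Htr2c 1369860_a_at was also higher with injection vehicle. In hippocampus it had 8.27, 7.36, 8.01, 7.90 and 7.40 with injection vehicle, against 6.49, 6.72, 6.67, 6.89 and 6.32 with chow vehicle, without overlap (difference 1.17 ± 0.18, 2.25-fold, limma adjusted p = 8.42e-05). In cortex it had 7.14, 6.34, 7.12, 7.15 and 6.74 with injection vehicle, against 5.62, 5.92, 6.01, 5.95 and 6.27 with chow vehicle, again without overlap (difference 0.94 ± 0.18, 1.92-fold, limma adjusted p = 0.000601). With the arrays set apart by choroid plexus genes left out, these differences were 0.86 in hippocampus (adjusted p = 0.00661) and 0.98 in cortex (adjusted p = 0.00107). The leading Htr2c probe set 1376980_at differed by 0.39 ± 0.19 in hippocampus (limma adjusted p = 0.165) and 0.40 ± 0.19 in cortex (limma adjusted p = 0.152), neither past the threshold, so a difference was called at 1 of its 2 probe sets.

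**Figure D4:**
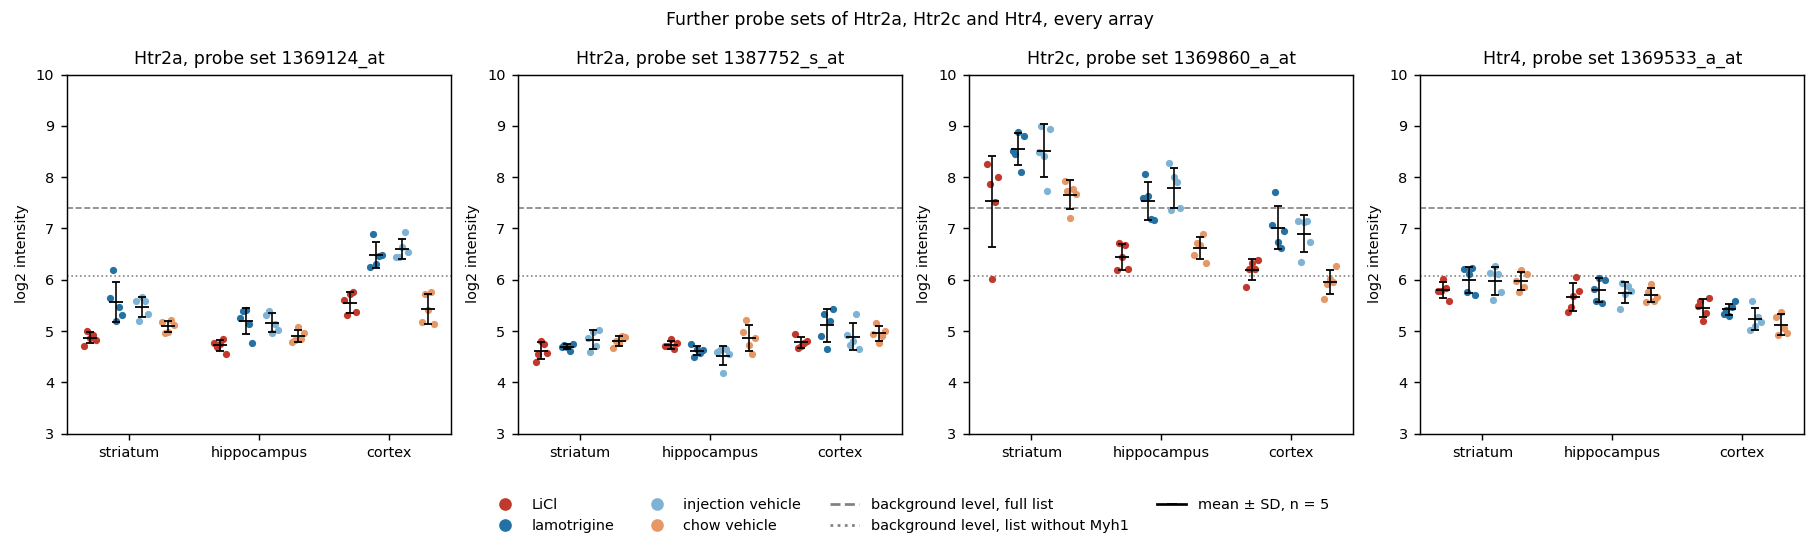
Log2 intensity of Htr2a 1369124_at, Htr2a 1387752_s_at, Htr2c 1369860_a_at and Htr4 1369533_a_at in every array, by region and treatment, with mean and SD of each group of 5 and both background levels (7.40 dashed, 6.07 dotted). In cortex the injection vehicle arrays of Htr2a 1369124_at lie at 6.44 to 6.93 and the chow vehicle arrays at 5.15 to 5.75.

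Htr7 1369119_a_at, a Gs-coupled receptor, had 7.35, 6.91, 7.11, 7.33 and 7.16 in injection vehicle hippocampus, against 6.58, 6.71, 6.86, 6.83 and 6.86 in chow vehicle hippocampus, without overlap (difference 0.40 ± 0.09, 1.32-fold, limma adjusted p = 0.00320). In cortex it had 7.09, 6.74, 6.47, 6.61 and 6.59 with injection vehicle, against 6.40, 6.45, 6.28, 6.31 and 6.24 with chow vehicle, without overlap (difference 0.36 ± 0.11, 1.29-fold, limma adjusted p = 0.0186). Without the cortex injection vehicle array at 7.09 the cortical call was lost (adjusted p = 0.0653). The other Htr7 probe sets, 1387466_a_at and 1371290_a_at, were called in neither hippocampus nor cortex. Htr1a in hippocampus had 7.54, 7.53, 7.63, 7.23 and 7.54 with injection vehicle, against 7.16, 7.002, 7.11, 7.38 and 6.96 with chow vehicle (difference 0.37 ± 0.11, 1.30-fold, limma adjusted p = 0.0202), with overlap at 1 array of each group. This call was lost without injection vehicle replicate 3 (0.34, adjusted p = 0.0545), without chow vehicle replicate 2 (0.34, adjusted p = 0.0520) and with the arrays high in choroid plexus genes left out (0.27, adjusted p = 0.203).

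The remaining calls were of Htr6 in hippocampus and Htr5b in cortex, where every level lay below both background levels. Htr6 was lower in injection vehicle hippocampus, with 4.92, 4.71, 4.83, 4.63 and 4.86, against 4.98, 5.25, 5.10, 5.05 and 5.17 in chow vehicle hippocampus, without overlap (difference -0.32 ± 0.08, 1.25-fold, limma adjusted p = 0.00546). Htr5b was higher in injection vehicle cortex, with 3.73, 3.59, 3.79, 3.77 and 3.70, against 3.43, 3.43, 3.60, 3.53 and 3.44 in chow vehicle cortex, where 3.59 and 3.60 crossed (difference 0.23 ± 0.07, 1.17-fold, limma adjusted p = 0.0206). The call was lost without injection vehicle replicate 3 (0.21, adjusted p = 0.0503). In hippocampus the spread of the arrays was 3.55 to 3.64 with injection vehicle and 3.43 to 3.56 with chow vehicle, and with it as a covariate only Htr2c 1369860_a_at of the 6 calls there still passed. In cortex the 5 calls held with this covariate.

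Other genes of serotonin signalling were counted in lists. In the LiCl comparisons of striatum and hippocampus and in all lamotrigine comparisons, none of the 8 measured genes of serotonin synthesis and transport, the other 4 receptor genes (Htr1f, Htr2b, Htr3a, Htr3b), 29 signalling genes or 15 partner genes passed. In LiCl cortex 9 of 29 signalling genes were called, against 13.4% of all probe sets, all of them lower, with a list median of -0.15 against 0.00 over all probe sets. They included Kcnj6, a subunit of the potassium channels that inhibitory receptors open (9.30 with LiCl and 9.71 with chow vehicle, difference -0.41 ± 0.06, limma adjusted p = 0.000922), Gnaq, the G protein of Htr2a and Htr2c (difference -0.45 ± 0.11, limma adjusted p = 0.0157), and Creb1, a transcription factor that cyclic AMP activates (difference -0.39 ± 0.10, limma adjusted p = 0.0159). The others were Plcb4, Prkacb, Gnao1, Adcy2, Gnai1 and Arrb2. Of the partner genes Cops5, Cdk5 and Gphn were lower (3 of 15). The serotonin transporter gene Slc6a4 (4.70 with LiCl and 4.35 with chow vehicle, limma adjusted p = 0.0166) and Htr3a (5.57 with LiCl and 5.17 with chow vehicle, limma adjusted p = 0.0369) were higher, both at low levels. These calls share the difference in spread given above.

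Between the vehicles, Maoa, whose product breaks down serotonin, was higher with injection in striatum (difference 0.41 ± 0.06), hippocampus (0.70 ± 0.07) and cortex (0.43 ± 0.06), with limma adjusted p-values of 0.000200, 2.05e-07 and 4.10e-05. Maob was higher in hippocampus (difference 0.27 ± 0.07, limma adjusted p = 0.0125), and the receptor gene Htr1f was higher in striatum and cortex (differences of 0.55 ± 0.09 and 0.37 ± 0.11). Of 29 signalling genes, 5 were higher and 2 lower in hippocampus, 4 higher and 3 lower in cortex, and 1 higher and 1 lower in striatum, against 18.5%, 18.9% and 6.83% of all probe sets called in either direction. Creb1 was higher in all 3 regions (1.02 ± 0.08 in hippocampus, 0.64 ± 0.10 in cortex, 0.61 ± 0.12 in striatum), and Gnai1, an inhibitory G protein, was higher in hippocampus (0.74 ± 0.07) and cortex (0.60 ± 0.09). Gnaq, Kcnj3 and Prkacb were also higher and Gnas and Kcnj9 lower in hippocampus, Prkacb and Plcb1 higher and Arrb2, Plcb4 and Kcnj6 lower in cortex, and Arrb2 lower in striatum. Among 15 partner genes, Adarb1, an enzyme that edits the Htr2c transcript, was lower in hippocampus (difference -0.26 ± 0.07) and cortex (-0.30 ± 0.06), and S100a10, which binds Htr1b, was lower in cortex (-0.22 ± 0.07). Fyn and Gphn were higher in hippocampus, and in cortex Cops5 and Cdk5 were lower and Dlg4, a scaffold of the postsynaptic density, was higher. The hippocampus calls share the difference in spread between the vehicles given above, and its part in them was not tested.

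The LiCl effect differed between regions for 2 of 8 genes of synthesis and transport (Slc6a4 and Fev), 1 of the 4 other receptor genes (Htr3b), 5 of 29 signalling genes (Gnas, Arrb2, Plcb4, Gnaq and Creb1) and 1 of 15 partner genes (Cops5), against 17.2% of all probe sets. Between regions in vehicle animals, 15 of 29 signalling genes were lower and 6 higher in hippocampus than in cortex, 18 were lower and 6 higher in striatum than in cortex, and 14 were lower and 11 higher in striatum than in hippocampus, against 42.4%, 55.9% and 50.9% of all probe sets called in either direction.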

How the data were processed

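RNA of 60 samples was hybridised to 60 Affymetrix arrays. Per the submitters' processing notes the authors computed the values with RMA in R 2.7.2, and the deposited table holds intensities on a linear scale (6.93 to 28582). Log2 was taken with no pseudocount. Tests ran on 31042 probe sets, 57 controls being dropped. Of these, 20826 had 1 gene symbol in the platform annotation, 436 had several and 9780 were unnamed.

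Groups came from the labels. R 4.3.3 and limma 3.58.1 were used, with 1 model per region (20 arrays, moderated with an intensity trend). Comparisons of regions, mean effects and differences of effects used all 60 arrays with the animal number of the descriptions (24 animals, read as they stand) as a random block (consensus correlation 0.133). P-values were adjusted by Benjamini-Hochberg over all probe sets and called at 0.05. Nothing else says that samples of a group are separate animals, so p-values measure the spread between these samples. The number of arrays limits the precision.

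The receptors and gene lists were chosen with earlier results of these data known. Values per array are given for receptor probe sets called in a drug or vehicle comparison and, where a drug comparison of a region had fewer than 3, for the 3 with a group mean above the background level of 7.40 and the smallest p. The fits were tested on simulated data. Alternatives were other scalings, array covariates, left-out arrays, a filter on dim probe sets, blocks, and other background levels.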

Additional observations from a re-analysis of the deposited data

Results flagged for a closer look

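In 204 groups of 5 arrays (17 receptor probe sets in 12 groups), 9 had an array whose gap to its nearest neighbour exceeded the critical share of the range (0.71), and chance gives about 1 in 20. In hippocampus with injection vehicle these were Htr1a at 7.226 in replicate 4 (others 7.53 to 7.63), Htr2a 1387752_s_at at 4.191 in replicate 3 (others 4.54 to 4.66) and Htr5a at 5.666 in replicate 5 (others 5.84 to 5.88). In striatum they were Htr1d at 6.455 in LiCl replicate 3 (others 7.40 to 7.72), which was also the striatum array lowest in genes of medium spiny neurons (11.7), Htr2c 1376980_at at 10.95 in chow vehicle replicate 3 (others 11.4 to 11.6) and Htr4 1391263_at at 6.513 in chow vehicle replicate 1 (others 7.22 to 7.51). In cortex they were Htr1d at 5.066 in lamotrigine replicate 3 (others 5.35 to 5.46) and at 5.313 in chow vehicle replicate 5 (others 5.08 to 5.13). In hippocampus with LiCl, Htr7 1371290_a_at was at 3.276 in replicate 1 (others 3.43 to 3.46).

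The LiCl effect differed between regions for Htr2a 1369125_at (limma adjusted p = 0.0178), Htr1b (limma adjusted p = 0.0313) and Htr6 (limma adjusted p = 0.0412). These 3 of 17 receptor probe sets were about the share called over all probe sets (17.2%). With the spread of the arrays as a covariate none of the 3 passed. When all arrays of 1 replicate number were left out at a time, the adjusted p ran from 0.0160 to 0.194 for Htr2a, from 0.0213 to 0.195 for Htr1b and from 0.00560 to 0.271 for Htr6.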

How the results depend on the processing

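Of 17 receptor probe sets, 5 lay above background by the main rule, 15 with the median and 1 with the 95th percentile of the same list, 14 with the 25th percentile of all probe sets, and 10 without Myh1 (added after seeing the data). The 12 calls between each pair of regions stayed within 1.5 times in every setting but the filter on dim probe sets, which left 1 receptor probe set to test and called 1 in each of the 3 region comparisons. For LiCl in cortex the 2 calls became 0 with the choroid plexus level or the array spread as a covariate and 0 with quantile normalization, 1 of 2 left with the dim filter, and 0 to 3 when arrays were left out in turn; it was 0 without chow vehicle replicate 2 or 4 or LiCl replicate 1 or 5 and 1 without chow vehicle replicate 5, and without chow vehicle replicate 4 the Htr2a difference was -0.46 (adjusted p = 0.0741). For LiCl in hippocampus, leaving out arrays gave 0 to 1, the 1 without chow vehicle replicate 5. The 3 calls of a LiCl effect that differed between regions became 1 without the animal block, 1 with quantile normalization, 1 with the choroid-high arrays left out, 0 with the spread as a covariate, 0 of 1 with the dim filter, and 0 to 3 without 1 replicate number (0 without number 2 or 3, 1 without number 1).

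Between the vehicles, 6 calls in hippocampus became 1 with the spread as a covariate and 0 of 1 with the dim filter. In cortex 5 became 9 with the difference between 3′ and 5′ control probe sets as a covariate (added after seeing the data) and 1 of 2 with the dim filter. In striatum 0 became 1 with the 3′ and 5′ covariate, 2 with the choroid plexus level, 3 in a fit of only the 2 groups, 2 with the spread, 2 with the choroid-high arrays left out, and 0 to 2 when arrays were left out (2 without injection vehicle replicate 4, 1 without chow vehicle replicate 2 or injection vehicle replicate 2). The replicate numbers of the titles do not pair the samples (correlations of same-numbered arrays from -0.539 to 0.235). With them as a block, striatum gave 1 call between the vehicles and all probe sets called for LiCl in hippocampus fell to 28, against 73.

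Of 1012 alternative values of 69 named receptor results, 924 kept their direction and their side of the threshold, 74 lost the call and 14 turned direction. Directions turned only for differences that did not pass the test. These were lamotrigine values of Htr1a in striatum (0.0072 with the 3′ and 5′ covariate, -0.14 to 0.065 over left-out arrays), of Htr1a in cortex (-0.079 to 0.11 over left-out arrays), of Htr2c 1376980_at in striatum (-0.072 with the choroid plexus level as a covariate, -0.12 without arrays high in it, and -0.15 to 0.21 over left-out arrays) and of Htr2c 1369860_a_at in cortex (-0.053 to 0.22 over left-out arrays), and the LiCl value of Htr2c 1369860_a_at in hippocampus (0.020 with the spread as a covariate).

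Counts over all probe sets moved by over 1.5 times under these settings. For LiCl in cortex 4164 became 1354 with quantile normalization, 1498 with the choroid plexus level, 2771 with the dim filter and 0 with the spread. For LiCl in hippocampus 73 became 27 with quantile normalization, 44 with the choroid plexus level, 19 without arrays high in it, and 0 with the spread. For a LiCl effect that differed between regions 5348 became 2139 with quantile normalization, 2134 with the dim filter and 8 with the spread. For the mean effects, without the animal block LiCl gave 649 (against 244) and lamotrigine 98 (against 37), and without choroid-high arrays they gave 75 and 18. Between the vehicles in hippocampus 5747 became 1230 with the spread, 3279 without choroid-high arrays and 3271 with the dim filter. The dim filter, which tests fewer probe sets, also gave 7546, 8655 and 8404 calls between hippocampus and cortex, striatum and cortex, and striatum and hippocampus (against 13163, 17363 and 15808), 3859 between the vehicles in cortex (against 5875) and 15 for the mean lamotrigine effect. The LiCl count in striatum was 2 with the spread, the lamotrigine count in cortex 2 without choroid-high arrays, and the 1 lamotrigine call in hippocampus was lost in 6 settings. With arrays left out the counts ran from 2094 (without LiCl replicate 5) to 3974 for LiCl in cortex, from 5 (without LiCl replicate 5) to 256 (without chow vehicle replicate 5) for LiCl in hippocampus, and from 0 to 8 (without LiCl replicate 5) for LiCl in striatum. Without 1 replicate number they ran from 2511 (number 1) to 4175 for a LiCl effect that differed between regions, from 45 (number 3) to 271 for the mean LiCl effect and from 13 (number 1) to 90 (number 4) for the mean lamotrigine effect. Lamotrigine counts by region with arrays left out, and for an effect that differed between regions, stayed between 0 and 3. The causes were not tested.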

Other observations

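Both injected groups stood apart from both chow-fed groups at 2 receptor probe sets, when each arm was taken as 10 arrays of a region. Htr2a 1369124_at in cortex ran from 6.25 to 6.93 in the lamotrigine and injection vehicle arrays together and from 5.15 to 5.76 in the LiCl and chow vehicle arrays together. Htr2c 1369860_a_at in hippocampus ran from 7.17 to 8.27 in the injected arrays and from 6.18 to 6.89 in the chow-fed arrays. These were 2 of 51 combinations of probe set and region. Of all 31042 probe sets, the arms did not overlap at 3.71% in cortex, 4.77% in hippocampus and 2.85% in striatum. The receptor values were noticed in the data, and no test was run on them.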
